A study of Rattus norvegicus with 10 samples.

Results

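Aggrecan and the noncollagenous proteins that assemble around it were followed in RCS cells, a rat chondrosarcoma line that lays down a cartilage-like matrix. The 10 genes looked for were Acan, Comp, Matn1, Matn3, Hapln1, Cnmd, Chad, Cytl1, Snorc and Scrg1, and a row of the deposited table was taken where its gene symbol matched, ignoring case. This found 7 of the 10, among 10184 genes in all. Cytl1, Snorc and Scrg1 matched no row and were not analysed here. The rule that matched rows used symbols and not measured values, but the genes were chosen with earlier results of these data known.

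Total RNA was taken 48 h after seeding from wild-type (WT) RCS cells and from RCS cells with a knockout (KO) of ARSL, with 5 libraries each. The labels call the libraries biological replicates and do not say that each came from a separate culture. The gene encodes arylsulfatase L, which removes sulfate from substrates inside the cell's secretory compartments. Both groups were grown in the same serum-containing medium and neither received a treatment. The labels do not say whether the KO libraries stem from a single clone. Genotype and any other difference between the lines therefore cannot be told apart. The targeted gene has no row under the symbol Arsl or Arse and was not analysed here, so the labels were not checked against it.

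In cartilage, aggrecan carries dense chondroitin sulfate chains, binds hyaluronan through link protein and gives the tissue its resistance to compression. COMP and the matrilins are adaptors that tie collagen fibrils, aggrecan and each other together. Chondromodulin and chondroadherin act at the cell, the former as an inhibitor of vessel growth and the latter as a leucine-rich ligand of collagen and integrins. Most of these genes are known targets of SOX9 with its partners SOX5 and SOX6.

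The libraries held 2065594 to 2591819 reads over the listed genes. Values are given as normalised reads, which are reads divided by the size factor of the library, and differences as KO minus WT on the deposited log2-like scale. The counts were not divided by transcript length, so levels are compared between libraries and not between genes. Of 7 chondrocyte markers (6 collagen genes and Sox9) the 6 collagen genes were present, summing to 30570 to 53720 normalised reads in WT and 25020 to 31590 in KO. Of 8 fibroblast markers, Col1a1, Col1a2, Col3a1, Dcn and Fap were not analysed here. The 3 that were present, Thy1, Pdgfra and S100a4, summed to 36.6 to 66.7 normalised reads in WT and 22.2 to 48.9 in KO. Of 6 osteoblast markers 2 were present, and nearly all of their sum was Alpl, the gene of alkaline phosphatase. The sum was 304 to 425 normalised reads in WT and 212 to 301 in KO, without overlap. KO and WT values did not overlap in 4.26% of all tested genes. Alpl itself did not pass (difference -0.47, SE 0.11, limma adjusted p = 0.0566). Of the 6 chondrocyte collagen genes 1 fell, Col11a1 (difference -1.16, SE 0.229, limma adjusted p = 0.0207). Of 2 fibroblast markers tested 1 fell, S100a4 (difference -0.60, SE 0.112, limma adjusted p = 0.0179). Among all tested genes 1.14% passed. The KO mean of S100a4, 5.24 on the log2-like scale, was less than 1 above the lowest value of 4.42. Without WT 3, WT 4 and ARSL KO 4 the differences were -0.85 for Col11a1 and -0.71 for S100a4. Leukocyte, endothelial and epithelial lists had 2 of 6, 1 of 5 and 1 of 5 genes in the table. WT 3 and WT 4 stood apart from all other libraries on the first principal component of the tested genes, with scores of 28 and 26.8, ARSL KO 4 lay between at 7.91, and the other 7 libraries lay from -15.0 to -2.96. No label distinguishes these 3 libraries, so results that rest on them are given with and without them. They were set apart by their values, and leaving them out can narrow the spread within groups. Each p-value without them is therefore a description and not a valid test.

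The sequence upstream of a start site is shown for 4 genes whose values across libraries the results turn on: Acan, Comp and Hapln1, which were high in all 3 of those libraries, and Matn3, which was high in WT 3 and WT 4 and lowest in ARSL KO 4. The RefSeq table of build GRCr8 held promoters for 5 of the 7 genes. Each line gives the 250 bases before the annotated start, 5′ to 3′ on the gene's strand, for Acan at chr1:142390701-142390950 (plus strand), Comp at chr16:19089549-19089798 (minus), Hapln1 at chr2:22366717-22366966 (plus) and Matn3 at chr6:37467479-37467728 (plus). Capitals mark matches, on either strand, to the SOX core motifs ACAAAG and ACAATG, the TATA box TATAAA and the GC box GGGCGG.
Acan: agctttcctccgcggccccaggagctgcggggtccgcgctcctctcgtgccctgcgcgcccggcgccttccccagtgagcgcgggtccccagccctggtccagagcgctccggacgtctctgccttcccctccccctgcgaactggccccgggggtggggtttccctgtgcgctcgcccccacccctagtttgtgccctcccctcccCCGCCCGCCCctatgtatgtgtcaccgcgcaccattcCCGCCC
Comp: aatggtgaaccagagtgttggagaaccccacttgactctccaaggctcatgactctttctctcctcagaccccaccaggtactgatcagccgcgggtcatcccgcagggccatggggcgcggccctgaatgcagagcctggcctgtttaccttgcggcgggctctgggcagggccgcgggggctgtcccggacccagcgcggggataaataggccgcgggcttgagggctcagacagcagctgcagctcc
Hapln1: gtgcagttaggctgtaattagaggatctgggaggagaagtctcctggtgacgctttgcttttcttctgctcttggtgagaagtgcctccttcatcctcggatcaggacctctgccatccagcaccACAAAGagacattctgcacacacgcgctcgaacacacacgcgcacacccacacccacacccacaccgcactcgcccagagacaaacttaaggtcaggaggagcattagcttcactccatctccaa
Matn3: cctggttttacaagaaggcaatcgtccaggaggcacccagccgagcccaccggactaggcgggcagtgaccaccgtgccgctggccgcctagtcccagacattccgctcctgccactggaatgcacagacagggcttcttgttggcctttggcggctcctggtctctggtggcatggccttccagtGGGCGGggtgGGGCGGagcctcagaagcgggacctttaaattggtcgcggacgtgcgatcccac
The Hapln1 sequence held 1 SOX core, ACAAAG, from -125 to -120 relative to the start, and a SOX core of either spelling occurred in 25.3% of 33469 promoters of the same length. The Acan sequence held 3 GC boxes on the minus strand, a pair of which overlapped, and Matn3 held 2, while 30.5% of promoters had a GC box. In Comp none of the 4 motifs occurred. Chad, not printed, had a TATA box from -29 to -24, a motif of 12.9% of promoters, and a GC box. GC content was 73.6% for Acan, 64.8% for Comp, 64.0% for Matn3, 58.4% for Chad and 54.0% for Hapln1, against a median of 51.2% over all promoters. These matches describe letters only, and binding was not measured.

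None of the 7 genes passed the test between genotypes. The test was limma on the log2-like values with Benjamini-Hochberg adjustment over all 8431 genes tested, and a gene was called where its adjusted p was under 0.05. All 7 genes passed the filter on low values. Called were 0 of the 7, where 96 of all tested genes, 1.14%, were called, so a count of 0 is near that background for so few genes. At an unadjusted p under 0.05 there was 1 of the 7, against 13.5% of all genes, and limma-voom on the reads also called 0. KO and WT values overlapped in each of the 7, while they did not overlap in 4.26% of all genes. The median difference of the 7 was -0.03, with 3 above 0 and 4 below, and that of all tested genes was 0.01.

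Acan, the proteoglycan core protein, had 3437, 2812, 4707, 4955 and 3520 normalised reads in WT 1 to 5. In KO 1 to 5 it had 5018, 4970, 3084, 5675 and 3940. The KO libraries thus included the highest value of all 10 and also one below 4 of the 5 WT values. The means were 3886 ± 909 and 4537 ± 1023 (SD, n = 5 each), a ratio of 1.17, and the difference was 0.22 (SE 0.18, 95% interval -0.16 to 0.61, limma adjusted p = 0.616).

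Hapln1 encodes link protein, which locks aggrecan onto hyaluronan. It had 7229, 7485, 12175, 11685 and 7758 normalised reads in WT 1 to 5. In KO 1 to 5 the values were 8389, 8708, 8200, 10890.2 and 6971. Apart from WT 3, WT 4 and ARSL KO 4, the libraries of both genotypes lay within 6971 to 8708. The difference was -0.08 (SE 0.17, 95% interval -0.44 to 0.28, limma adjusted p = 0.87).

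Cnmd, the gene of chondromodulin, varied most. WT 1 to 5 had 5087, 5261, 12060.3, 11446 and 5639 normalised reads. KO 1 to 5 had 7227, 7584, 5952, 8773 and 5432. WT 3 and WT 4 exceeded every KO library, and the other 3 WT libraries lay below 4 of the 5 KO values. The difference was -0.08 (SE 0.243, 95% interval -0.60 to 0.44, limma adjusted p = 0.903), the widest interval of the 7. A spread over the 10 libraries as wide as that of Cnmd, 1.24 on the log2-like scale, was found in 4.04% of tested genes.

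Comp, a member of the thrombospondin family, had 1531, 1533, 2944, 3337 and 2212 normalised reads in WT 1 to 5. KO 1 to 5 had 2264, 2501, 2099, 2993 and 1795. Here WT 5 lay between the low and the high WT libraries. The means were 2312 ± 818 and 2331 ± 451 (SD, n = 5 each) and the difference was 0.06 (SE 0.208, 95% interval -0.38 to 0.51, limma adjusted p = 0.919).

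The matrilins Matn1 and Matn3 can join into mixed oligomers. Matn1 had 4089.8 normalised reads in WT 1, 4228 in WT 2, 5173 in WT 3, 5860.4 in WT 4 and 4204 in WT 5. In KO 1 to 5 it had 5984, 4983, 5032, 4891 and 4714. All KO values thus exceeded WT 1, 2 and 5, and only WT 3 and WT 4 reached into their range. The difference was 0.13 (SE 0.12, 95% interval -0.13 to 0.39, limma adjusted p = 0.661), and Matn1 had the narrowest spread of the 7, matched or exceeded by 64.7% of tested genes.

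Matn3 was seen in few reads, 18 to 56 per WT library and 13 to 26 per KO library. In normalised reads it had 25.3, 24.2, 53.6, 53.5 and 19.0 in WT 1 to 5, and 15.0, 23.9, 24, 12.7 and 21.5 in KO 1 to 5. WT 3 and WT 4 were the only libraries above 25.3, and the lowest value was that of ARSL KO 4, from 13 reads (95% exact Poisson interval 6.92 to 22.2, counting error only). The means were 35.1 ± 17 and 19.4 ± 5.25 (SD, n = 5 each). The difference of -0.38 (SE 0.161, 95% interval -0.72 to -0.03 before adjustment) was the largest of the 7 in size and did not pass (limma adjusted p = 0.316). Without WT 3, WT 4 and ARSL KO 4 it was -0.05 (SE 0.133, limma adjusted p = 0.907).

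Chad was also seen in few reads, 17 to 37 per library. WT 1 to 5 had 21.8, 16.5, 40.5, 32.5 and 24.3 normalised reads, and KO 1 to 5 had 26.8, 30.4, 15.7, 33.2 and 22.4. The KO values lay within the WT range but for ARSL KO 3. The difference was -0.03 (SE 0.134, 95% interval -0.32 to 0.26, limma adjusted p = 0.944). For each of the 7 genes a missed threshold does not show that genotypes were alike, and the intervals give the sizes that these libraries leave possible.

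**Figure D1:**
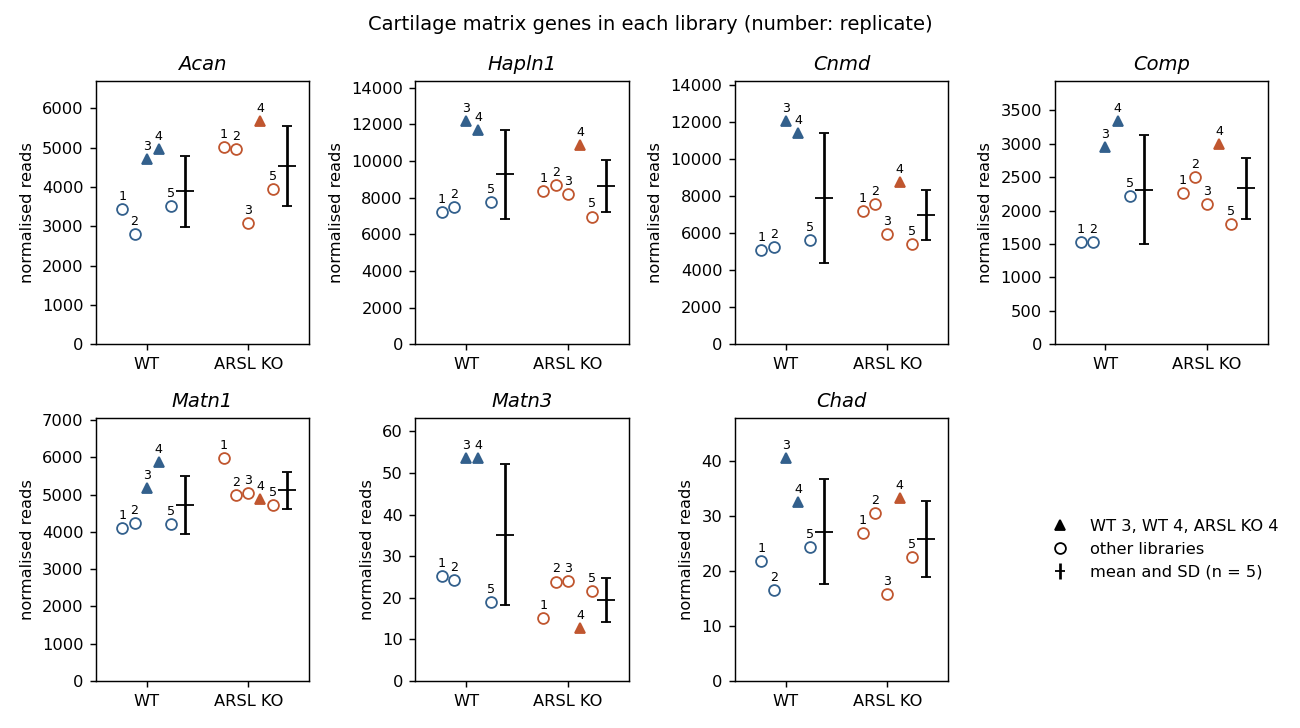
Normalised reads (linear axes from 0) of the 7 genes in each WT and ARSL KO library, numbered by replicate, with mean and SD over n = 5. Triangles mark WT 3, WT 4 and ARSL KO 4: Cnmd reached 12060.3 and 11446 in WT 3 and WT 4 against 5087 to 5639 in the other WT libraries, and Matn3 was lowest, at 12.7, in ARSL KO 4.

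Within the WT group, all 7 genes were higher in both WT 3 and WT 4 than in WT 1, 2 and 5. Of all tested genes, 27.2% had both libraries above the others and 29.0% had both below. These WT libraries were singled out from earlier results of the same data, so the values are a description with no test. The lower of WT 3 and WT 4 was 2.12 times the highest of WT 1, 2 and 5 for Matn3 and 2.03 times for Cnmd. The ratio was 1.51 for Hapln1, 1.34 for Acan and for Chad, 1.33 for Comp and 1.22 for Matn1. Together the 7 genes took 1.6% and 1.61% of the reads of WT 3 and WT 4, 0.948% each in WT 1 and WT 2 and 1.02% in WT 5. The collagen chondrocyte markers moved with them, at 53720 and 53320 normalised reads in WT 3 and WT 4 and 30570 to 32270 in the other WT libraries. The osteoblast sum was 396 and 425 against 304 to 357. Vwf, the endothelial marker present, was 44.9 and 39.2 against 13.5 to 39.1. The epithelial marker Krt8, at 467 and 431 against 444 to 509.5, did not move with them. The leukocyte sum was 19.7 and 19.1 against 11.6 to 16.9, and the fibroblast sum 66.7 and 43.0 against 36.6 to 60.0. The part of these markers in the result was not tested. In bulk RNA, a larger share of cells that express these genes and more RNA per cell cannot be told apart.

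ARSL KO 4 was the highest KO library for 5 of the 7 genes, Acan, Hapln1, Cnmd, Comp and Chad, where it was highest for 26.7% of all tested genes. It did not share the whole pattern. Matn3 was at its lowest there, as were 27.2% of all genes within the KO group, and Matn1 ranked 4 of the 5 KO libraries. The 7 genes took 1.47% of its reads and 1.04% to 1.30% in the other KO libraries. The chondrocyte collagen markers summed to 31590 normalised reads in ARSL KO 4, the highest of the KO libraries but below the high WT pair. What sets these 3 libraries apart was not tested.

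**Figure D2:**
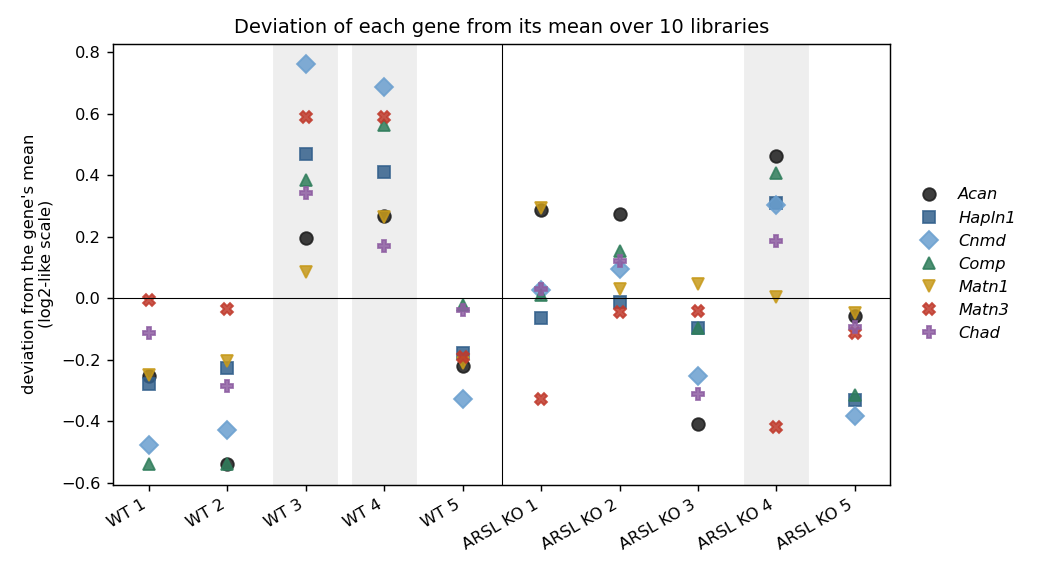
Deviation of each of the 7 genes from its own mean over the 10 libraries (vertical axis, log2-like scale) for each library (horizontal axis), with WT 3, WT 4 and ARSL KO 4 shaded. All 7 symbols lie above 0 in WT 3 and WT 4, and in ARSL KO 4 Matn3 lies below 0 while Acan, Comp, Hapln1, Cnmd and Chad lie above.

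Leaving out WT 3, WT 4 and ARSL KO 4 left 3 WT and 4 KO libraries, in which 6 of the 7 genes were higher in KO on average. All 7 genes were higher in WT 3 and WT 4 than in the other WT libraries. Leaving these out therefore lowers every WT mean by construction. The direction of the differences is thus partly set by the choice of libraries and is not a result about the 7 genes. The share of all genes that were higher in KO in these libraries is not given here. Still 0 of the 7 were called, where 3.56% of all genes were, and the median of the 7 was 0.28 against 0.01 over all genes. Acan had means of 3256 and 4253 normalised reads in WT and KO, a ratio of 1.31, with a difference of 0.36 (SE 0.125, 95% interval 0.10 to 0.62, limma adjusted p = 0.117). Comp differed by 0.31 (SE 0.114, limma adjusted p = 0.153) and Cnmd by 0.28 (SE 0.106, limma adjusted p = 0.152). Matn1 differed by 0.30 (SE 0.0927, limma adjusted p = 0.0694), and its KO values lay entirely above the WT values, as did those of 6.80% of all genes. These 4 had an unadjusted p under 0.05, as did 15.9% of all genes. Hapln1 differed by 0.10 and Chad by 0.08, both with intervals across 0.

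**Figure D3:**
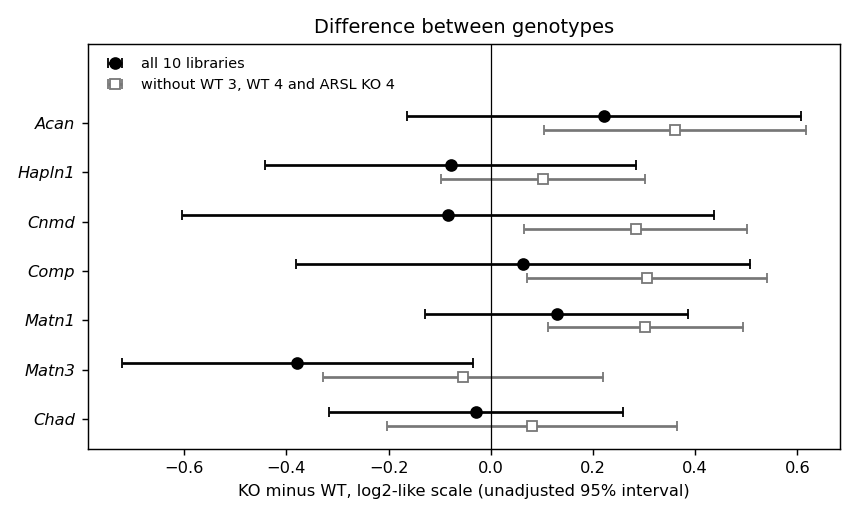
Difference KO minus WT on the log2-like scale (horizontal axis) with its unadjusted 95% interval for each of the 7 genes. Filled circles use all 10 libraries and open squares leave out WT 3, WT 4 and ARSL KO 4: Cnmd moves from -0.08 to 0.28 and Matn3 from -0.38 to -0.05, and none of the points passed the adjusted threshold.

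The genes most like a member across the 10 libraries were sought for the 4 whose values spanned at least 1 on the log2-like scale. Likeness was the root mean square difference between the profiles after centring each gene on its mean, so a smaller value is closer. Cnmd was closest to Lamp1, a lysosomal membrane protein, at 0.07, and to Fzd2, a Wnt receptor, at 0.08. Comp was closest to a row with no symbol, ENSRNOG00000050315, at 0.09, and to Spp1, the gene of osteopontin, at 0.10. Matn3 was closest to Zfyve1 at 0.12 and to Me1, the cytosolic malic enzyme, at 0.13, and Acan to E2f2 at 0.13 and Mknk2 at 0.15. Among the 7 themselves the closest pair of these comparisons was Comp with Hapln1, at 0.16, and the farthest was Acan with Matn3, at 0.44. These distances are a description and carry no test.

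Of the hyaluronan side of the aggregate, 7 of 20 listed genes were tested, and 1 rose and 6 did not pass (median 0.11). Over all tested genes, 1.14% were called. At an unadjusted p under 0.05 there was 1 of the 7, against 13.5% of all genes. The gene that rose was Tnfaip6, a hyaluronan-binding protein that is induced in inflammation, from 24.8 ± 9.64 to 51.1 ± 5.37 normalised reads (SD, n = 5 each). Every KO library, at 43.9 to 59.1, lay above every WT library, at 13.1 to 37.7, and the lowest were WT 3 and WT 4. KO and WT values did not overlap in 4.26% of all genes. The difference was 0.59 (SE 0.127, limma adjusted p = 0.0384). Its call was lost when any of 8 libraries was left out, those being all but WT 1 and WT 2 (limma adjusted p up to 0.125), and without the 3 libraries together (0.0733). Hyal2, a hyaluronidase and the listed gene with the most reads, differed by 0.05 (SE 0.127, limma adjusted p = 0.886).

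The small leucine-rich proteoglycans, relatives of chondroadherin, had 4 of 14 listed genes tested and 0 called by limma, 0 also at an unadjusted p under 0.05 and 0 by limma-voom, with all 4 differences below 0 (median -0.24). The share called over all tested genes was 1.14%. Without the 3 libraries the median of the list was 0.07. Bgn, biglycan, had the smallest p (limma adjusted p = 0.506). It stood at 105 ± 74.3 normalised reads in the WT and 57.8 ± 26.5 in the KO libraries (SD, n = 5 each), a difference of -0.48 (SE 0.299). Without the 3 libraries its means were 50.6 and 50.8 and the difference was -0.05 (SE 0.16, limma adjusted p = 0.941), and it was -0.28 without WT 3 alone or WT 4 alone. Prelp, which had the most reads, differed by -0.21 (SE 0.213, limma adjusted p = 0.688). Both were higher in WT 3 and WT 4 than in WT 1, 2 and 5.

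Among other noncollagenous matrix proteins, 12 of 30 listed genes were tested, and 1 fell and 11 did not pass (median -0.39, or -0.21 without the 3 libraries). Over all tested genes, 1.14% were called. At an unadjusted p under 0.05 there were 6 of the 12, against 13.5% of all genes. Ucma, a small cartilage protein rich in gamma-carboxyglutamate, fell, with 23.5 to 91.8 normalised reads in WT and 1.79 to 10.9 in KO (limma adjusted p = 0.0176). The KO libraries held only 2 to 10 reads of Ucma. The KO mean, 5.21 on the log2-like scale, was less than 1 above the lowest value of 4.42, so Ucma passed the filter through its WT values. Its call was lost without ARSL KO 3 or ARSL KO 5 (limma adjusted p up to 0.0625). Mgp, matrix Gla protein and the listed gene with the most reads, differed by -0.33 (SE 0.151, limma adjusted p = 0.354). Of the thrombospondins, the family of COMP, Thbs1 differed by -1.02 (SE 0.361, limma adjusted p = 0.22) and Thbs3 by 0.16 (SE 0.214, limma adjusted p = 0.769) with all libraries. Without the 3 libraries the difference of Thbs1 was smaller in size with a smaller error, -0.61 (SE 0.129, limma adjusted p = 0.00636). Thbs3 then differed by 0.56 (SE 0.124, limma adjusted p = 0.00801). As the libraries left out were picked by their values, these p-values are a description. Of all genes, 3.56% were under the threshold without them.

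Among proteases linked to the cleavage of aggrecan or COMP, and inhibitors, 5 of 16 listed genes were tested (median -0.11). Called were 0 by limma, against 1.14% of all tested genes, and 0 by limma-voom. At an unadjusted p under 0.05 there were 3, against 13.5% of all genes. Timp3, an inhibitor of aggrecanases, had the smallest p (limma adjusted p = 0.14), with a mean of 25.2 ± 10.2 against 11 ± 3.67 normalised reads for WT and KO (SD, n = 5 each). Mmp14, a membrane-bound metalloprotease, differed by 0.45 (SE 0.136, limma adjusted p = 0.152). Its limma adjusted p was 0.0192 without WT 4 and, as a description only, 0.0044 without the 3 libraries together. Furin, with the most reads, differed by 0.06 (SE 0.116, limma adjusted p = 0.854).

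Among regulators of cartilage matrix genes, 12 of 21 listed genes were tested, and 1 fell and 11 did not pass (median -0.18). Over all tested genes, 1.14% were called. At an unadjusted p under 0.05 there were 4 of the 12, against 13.5% of all genes. Zbtb20, a zinc-finger transcription factor of hypertrophic chondrocytes, fell from 464 ± 82.6 to 267 ± 61.4 normalised reads (SD, n = 5 each), with a difference of -0.72 (SE 0.141, limma adjusted p = 0.0207). The groups overlapped through WT 5 at 359 and ARSL KO 4 at 367. Its call was lost without WT 3 or ARSL KO 1, 2, 3 or 5 (limma adjusted p up to 0.0831). Without the 3 libraries together, ARSL KO 4 among them, the limma adjusted p was 0.000146, a description only. Pth1r, the receptor of parathyroid hormone-related protein, differed by -0.35 (SE 0.107, limma adjusted p = 0.157). Without the 3 libraries it differed by -0.41 (limma adjusted p = 0.00929, a description only). Sox5, the listed gene with the most reads, differed by -0.01 (SE 0.0865, limma adjusted p = 0.977), with 541 ± 25.8 and 539 ± 47.7 normalised reads in WT and KO (SD, n = 5 each). Sox6 differed by -0.33 (SE 0.136, limma adjusted p = 0.299), and by -0.29 without the 3 libraries. Sox9 was not analysed here.

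**Figure D4:**
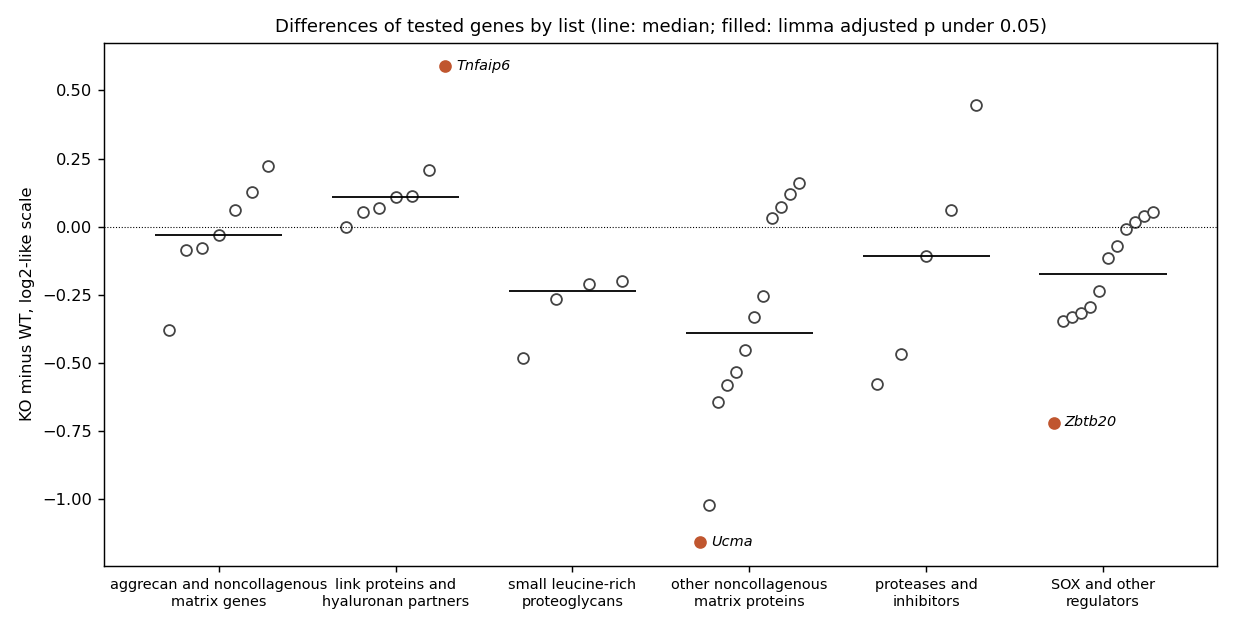
Difference KO minus WT on the log2-like scale (vertical axis) for each tested gene, grouped by list (horizontal axis), with a line at each list's median and filled points for genes with a limma adjusted p under 0.05 with all 10 libraries. The 7 aggrecan and noncollagenous matrix genes lie between -0.38 and 0.22 with none called, and Tnfaip6 rose and Ucma and Zbtb20 fell in the neighbouring lists.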

How the data were processed

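Messenger RNA of 5 WT and 5 ARSL KO libraries was sequenced by a commercial provider's digital mRNA method, per the labels' protocols. Per the submitters' processing notes, bcl2fastq, STAR 2.7.11a, HTSeq and build rn6 were used. The authors deposited variance-stabilized, log2-like values normalized for library size. For that step the tool and gene filter, and for counting the use of strand, are not given here by any source used.

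Inverting the closed form of the transformation from the lowest value, 4.42, gave whole reads for all values, within 1e-06 reads. Reads and normalised reads come from this step. The filter kept genes whose mean exceeded the lowest value by at least 1 (about 10.7 normalised reads). They were tested with limma 3.58.1 in R 4.3.3 (intensity trend, two-sided, Benjamini-Hochberg adjustment), which was checked on simulated data. Intervals are 95%, before adjustment. P-values measure the spread between libraries, which the labels call biological replicates without naming separate cultures.

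Replicate numbers are shared by the groups, and no label says whether they pair libraries. Same-numbered libraries did not all deviate together, with correlations of deviations from -0.293 for replicate 3 to 0.587 for replicate 4. The lowest chi-square per degree of freedom between libraries of a group was 1.85, and all 10 were kept. It was far higher for other pairs. WT 3 and WT 4 against WT 1, 2 and 5 gave 15.7 to 21.3, while WT 3 against WT 4 gave 2.37. The highest KO value was 10.7, between ARSL KO 3 and ARSL KO 4.

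The genes and lists were chosen with earlier results of these data known. Named are all 7 genes and, from each list, called genes, otherwise the smallest p, and the gene with the most reads, with the 2 closest genes to a member. Genes called only without the 3 libraries, and Sox6, Col11a1 and S100a4, were named after their values were seen. Alternatives were a replicate block, filters, scalings, no trend, limma-voom, and leaving out libraries. Figures used matplotlib 3.10.9.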

Additional observations from a re-analysis of the deposited data

Results flagged for a closer look

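In 14 groups of 5 libraries (7 genes in each genotype) a library far from the rest of its group was looked for with Dixon's criterion at 95%. The criterion was met in 1 group. Matn1 in ARSL KO 1 stood at 12.56 on the log2-like scale, 5984 normalised reads, above the other KO libraries at 4714 to 5032. Chance meets the criterion in about 1 in 20 groups. Without ARSL KO 1 the difference of Matn1 was 0.07 (limma adjusted p = 0.858).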

How the results depend on the processing

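None of the 7 genes was called under any alternative that tested it. Matn3 and Chad lay below the stricter filter and were not tested there. The limma adjusted p ranged from 0.0694 upward, the lowest for Matn1 without WT 3, WT 4 and ARSL KO 4. Acan, Matn1 and Matn3 kept their direction in every alternative that tested them. Acan ranged from 0.11 to 0.36, Matn1 from 0.07 to 0.30 and Matn3 from -0.71 (limma-voom on recovered reads) to -0.05. Directions turned without the 3 libraries for Chad (0.081), Cnmd (0.28), Hapln1 (0.10) and Prelp (0.11). Leaving out 1 library at a time gave -0.10 to 0.052 for Chad, -0.21 to 0.10 for Cnmd, -0.065 to 0.21 for Comp and -0.17 to 0.029 for Hapln1, and -0.016 to 0.12 for Furin, -0.011 to 0.13 for Hyal2, -0.037 to 0.032 for Sox5 and -0.0093 to 0.32 for Thbs3. Sox5 differed by 0.030 with limma-voom and Mgp by 0 after quantile normalization, which the method fixes because Mgp ranked 2 among the tested genes in all 10 libraries. Medians of all genes moved by less than 0.01 under other scalings.

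Over all genes, 96 calls became 42 with the stricter filter, which tests fewer genes, 300 without the 3 libraries, and 33 to 101 with 1 library left out (62 for WT 3 and 53, 37, 33 and 37 for ARSL KO 1, 2, 3 and 5). For the hyaluronan list, 1 call became 0 without the 3 libraries, and 0 to 1 with 1 library left out. It was also 0 with the stricter filter, under which Tnfaip6 was not tested. For other noncollagenous proteins, 1 call became 4 with the replicate block, 2 without a filter, 3 without the 3 libraries and 0 to 2 with 1 left out. It became 0 with the stricter filter, under which Ucma was not tested. For proteases, 0 calls became 1 without the 3 libraries and 0 to 1 with 1 left out, and for regulators 1 became 2 and 0 to 1. Causes of the changes other than those of the stricter filter were not tested.

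The replicate block, whose shared numbers no label describes as pairs, gave 136 calls over all genes and 0 of the 7. Of the 10 libraries, 4 correlated best with their own number. Depth limits Matn3 and Chad, with 13 to 56 reads per library, and Ucma, with 2 to 10 reads per KO library.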

Other observations

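The balance between members that bind each other was followed as a ratio of normalised reads within a library, for 3 pairs chosen after the values were seen and with no test. The ratio depends on the length and counting of each gene, so only its change between libraries is read. Acan over Hapln1, the core protein over its link protein, was 0.475, 0.376, 0.387, 0.424 and 0.454 in WT 1 to 5. In KO 1 to 5 it was 0.598, 0.571, 0.376, 0.521 and 0.565. Thus 4 of 5 KO libraries exceeded every WT library, and ARSL KO 3 lay at the lowest WT value. WT 3 and WT 4, high in both genes, did not stand apart in this ratio.

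Comp over Matn1 was 0.374, 0.363, 0.569, 0.570 and 0.526 in WT 1 to 5 and 0.378, 0.502, 0.417, 0.612 and 0.381 in KO 1 to 5, so both groups spanned nearly the same range. Matn1 over Matn3 was 96.5 to 221 in WT and 209 to 398 in KO. It was lowest in WT 3 and WT 4 and highest in ARSL KO 1 and ARSL KO 4, and it overlapped between the groups through WT 5. On the log2-like scale the same pair did not overlap, at 5.83 to 6.32 in WT and 6.40 to 6.96 in KO, so that separation depends on the scale.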
